A study of Mus musculus with 9 samples.

Results

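Narrow promoter regions occupied by both PBRM1 and BRG1 were described in wild-type (WT) primary oviductal smooth muscle cells from mice of 8 to 12 weeks on day 2 of pregnancy. Chromatin immunocleavage sequencing (ChIC-Seq), in which an antibody directs micrococcal nuclease, fused to protein A, to cut DNA beside its target and the freed fragments are sequenced, was performed with 3 libraries for PBRM1 (BAF180), 3 for BRG1 and 3 for IgG, and the IgG samples were not analysed here. Per the labels, mating was the only treatment and was common to all groups, the cells came from digested and filtered oviducts after about 6 h in culture, and each library used 50000 fixed cells. Regions were selected on the measured peak lists. Peaks of the 6 replicate lists that shared at least 1 bp were merged on chromosomes 1 to 19 (GRCm38), and a region was kept when it overlapped a peak in all 6 lists, its midpoint lay within 2 kb of a GENCODE M21 transcript start and it was under 1500 bp wide. These 7929 narrow promoter regions were 9.72% of 81587 merged regions and 62.7% of the 12655 regions found in all 6 lists, beside 266 broad promoter regions of 1500 bp or more and 4460 distal regions. All 7929 entered the comparisons, and none was removed afterwards for low values. Presence in all 6 lists itself sets a floor on the pileup of both antibodies.

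SWI/SNF chromatin remodelers exist as BAF and PBAF complexes. PBRM1, a protein with several bromodomains, is found in PBAF, and BRG1, the product of *Smarca4*, is an ATPase that can drive either complex. These machines slide or evict nucleosomes and help to keep promoters and enhancers open to transcription factors. Most mouse promoters of broadly expressed genes lie in CpG islands, which hold binding sites for factors such as SP/KLF proteins, NRF1, NF-Y and ETS proteins, whereas AP-1 sites are typical of distal enhancers.

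Sequences under the summits of some named regions are printed as examples. Regions that hold one of the motifs searched were taken first, so the presence of motifs in them is not a result. The summit of a peak is the base with the highest pileup, that is, the most overlapping fragments, and the median of the 6 summits was taken for each region. Sequences of 161 bases centred on this median summit are printed 5′ to 3′ along the strand of the nearest gene, from the GRCm38.p6 reference. Capitals mark the letters of the GC box GGGCGG bound by SP/KLF factors, the CCAAT box of NF-Y, the ETS site CCGGAAG, the NRF1 core GCGCATGC and the TATA box TATAAA, each on either strand, and the CArG box bound by SRF. *Izumo4* was one of the 10 regions of highest pileup, and *Cables2* and *Dop1b* stand for regions with a large excess of BRG1. *Srf*, *Dpf3* and *Smarca4* stand for a muscle regulator and subunits of the remodeler itself. The region with the largest excess of BRG1, at *Eif4e1b*, held none of the 12 motifs searched in its summit window and is not printed.
Izumo4, chr10:80702007-80702167, plus strand: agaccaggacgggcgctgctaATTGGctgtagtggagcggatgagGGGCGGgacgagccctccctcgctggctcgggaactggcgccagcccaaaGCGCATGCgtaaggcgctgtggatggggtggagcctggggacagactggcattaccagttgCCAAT
Cables2, chr2:180273589-180273749, minus strand: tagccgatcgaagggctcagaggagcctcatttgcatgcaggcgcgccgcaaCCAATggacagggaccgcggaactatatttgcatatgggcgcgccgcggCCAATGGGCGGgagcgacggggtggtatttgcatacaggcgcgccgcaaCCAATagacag
Dop1b, chr16:93711639-93711799, plus strand: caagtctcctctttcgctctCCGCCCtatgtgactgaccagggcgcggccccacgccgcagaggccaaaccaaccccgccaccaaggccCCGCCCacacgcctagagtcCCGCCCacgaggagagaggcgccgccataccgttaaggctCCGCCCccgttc
Srf, chr17:46556194-46556354, minus strand: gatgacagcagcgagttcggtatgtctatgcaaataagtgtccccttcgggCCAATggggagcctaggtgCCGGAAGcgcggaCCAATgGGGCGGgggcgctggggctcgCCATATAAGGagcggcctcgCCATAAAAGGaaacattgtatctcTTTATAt
Dpf3, chr12:83487739-83487899, minus strand: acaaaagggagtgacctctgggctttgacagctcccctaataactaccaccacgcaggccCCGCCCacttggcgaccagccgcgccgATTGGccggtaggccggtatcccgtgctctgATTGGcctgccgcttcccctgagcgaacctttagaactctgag
Smarca4, chr9:21615926-21616086, plus strand: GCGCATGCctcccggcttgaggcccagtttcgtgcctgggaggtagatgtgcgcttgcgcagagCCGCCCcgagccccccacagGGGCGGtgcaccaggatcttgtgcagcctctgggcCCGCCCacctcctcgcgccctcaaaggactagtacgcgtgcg
The *Cables2* window held 3 CCAAT boxes and a GC box, and the *Dop1b* window 4 GC boxes. The *Srf* window held 2 CArG boxes downstream of its ETS, CCAAT and GC box letters.

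GC-rich sequence was shared by most of the narrow promoter regions, although the selection did not use it. Over the 300 bases around the summit the median GC content was 63.7%, and the ratio of observed to expected CpG dinucleotides was 0.798. In broad promoter regions these medians were 63.3% and 0.802, close to those of narrow ones. In distal regions found in all 6 lists they were 50.0% and 0.244. In windows from 250 bases before to 50 bases after a start, narrow promoter regions had a median CpG ratio of 0.779, against 0.358 over 125895 distinct annotated starts. CpG islands have a CpG ratio over 0.6 and a GC content over 50%. Such a window lay at the summit of 79.3% of narrow promoter, 79.3% of broad promoter and 7.47% of distal regions. The trait was thus shared by both promoter classes.

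Motifs typical of housekeeping promoters were frequent in these windows. The GC box was present in the start window of 65.7% of the regions, against 31% of all annotated starts, and the ETS letters in 19.5% against 8.44%. NRF1 letters were present in 6.22% against 2.40%, and the CREB/ATF site TGACGTCA in 3.91% against 1.61%. The E-box CACGTG was present in 10.9% against 6.26%, the YY1 site AAGATGGCG in 3.30% against 1.63%, the BANP/ZBTB33 site TCTCGCGAG in 1.46% against 0.597% and the ZNF143/THAP11 site ACTACAATT in 0.921% against 0.387%. CCAAT, at 42.5% against 35.4%, differed less, and it is the shortest of the motifs. TATAAA was less frequent, in 5.80% of the windows against 13.7% of all starts.

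**Figure D1:**
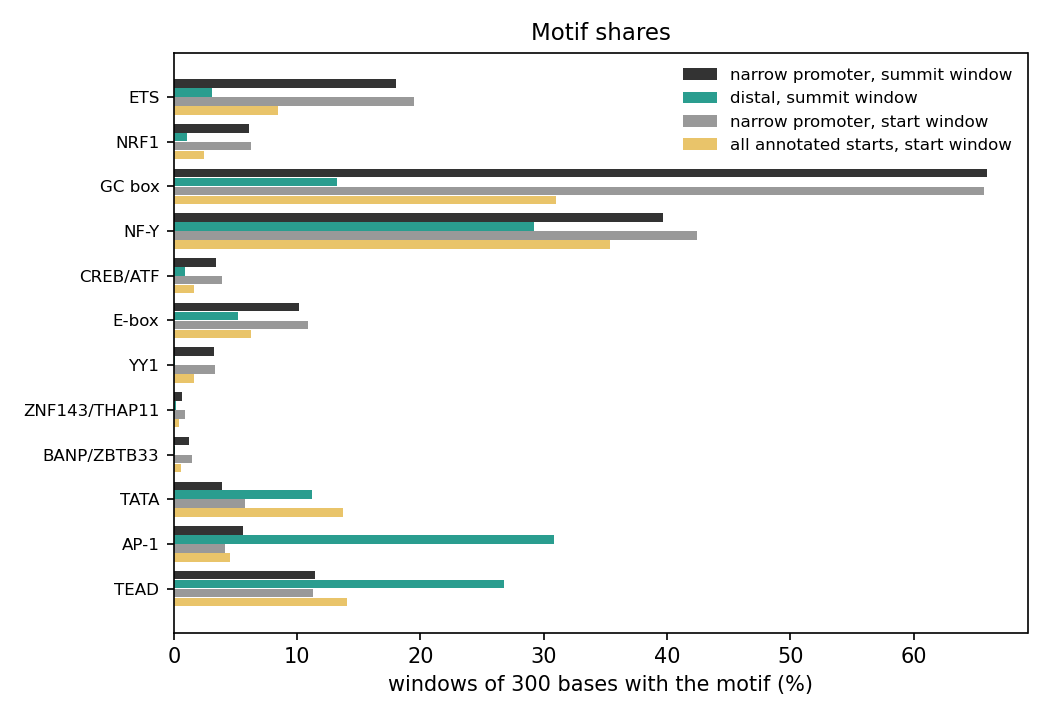
Share of 300-base windows (x axis, %) that hold each of 12 motifs (y axis) on either strand, for narrow promoter regions and distal regions at the summit and for narrow promoter regions and all annotated starts at the start. The GC box bars of narrow promoter regions reach 65.7% and 65.9%, and the AP-1 bar of distal regions reaches 30.8%.

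Enhancer motifs had the opposite distribution. In summit windows the AP-1 site TGAGTCA was present in 5.61% of narrow promoter regions and 30.8% of distal regions. The TEAD site GGAATG was present in 11.4% and 26.8%. Broad promoter regions had AP-1 in 6.02% and TEAD in 11.3%, close to narrow ones. Their summit windows held the GC box in 61.7%, against 65.9% of narrow ones. NRF1 letters differed more, in 0.752% of broad and 6.08% of narrow promoter regions. At the starts themselves AP-1 letters were about as frequent in narrow promoter regions (4.16%) as at all starts (4.56%). The CArG box, looked for after the *Srf* sequence had been seen, was in 1.44% of narrow promoter summit windows, 2.35% of distal ones and 1.45% of all start windows. Of the 7 narrow promoter regions whose nearest start belonged to a smooth muscle contractile gene, 2 held it, at *Srf* and *Cald1*. A match of letters is not a measured binding event.

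Motif positions followed the anatomy of promoters. NF-Y letters lay at a median of 69 bases upstream of the start (quartiles −132 and −16), NRF1 letters at 41 bases upstream, and YY1 letters at 16 bases downstream. Relative to the summit, NRF1 letters were most frequent in the central 60 bases, with 33.7 occurrences per 1000 regions, against 13 and 11.6 in the outermost bins of 60 bases on either side. GC box letters were likewise most frequent in the centre, with 332 per 1000 regions against 224 and 253. CCAAT was most frequent 31 to 90 bases upstream of the summit, with 165 per 1000 regions. The summit of each region was placed by the same reads as the selection, so these positions are descriptions.

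The genes at these regions were mainly protein-coding. The nearest start belonged to a protein-coding gene in 7077 regions (89.3%), to a lincRNA gene in 280 and to an antisense gene in 156, and 7634 genes were represented. A start within 1 kb on the opposite strand, a divergent promoter, was present in 1442 regions (18.2%). Another narrow region at the same gene was found for 280 genes, and *Ank2*, which encodes an ankyrin adaptor, had 4. The median summit fell in annotated untranslated sequence in 2364 regions, outside genes in 2756, in introns in 1540, in non-coding exons in 641 and in coding sequence in 628. In distal regions 49.4% of summits were outside genes and 47.2% were in introns.

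Housekeeping gene families were well represented, while olfactory receptor genes and markers of other cell types had no narrow promoter region. Of 20780 protein-coding genes, 8170 (39.3%) had a start within 2 kb of the midpoint of a narrow promoter region. The share was 68 of 78 mitochondrial ribosomal protein genes (87.2%), 49 of 59 spliceosome and SR protein genes (83.1%), 39 of 47 proteasome subunit genes (83.0%), 30 of 37 aminoacyl-tRNA synthetase genes (81.1%) and 66 of 82 nuclear oxidative phosphorylation genes (80.5%). It was 37 of 52 for translation initiation factors, 10 of 14 for small nucleolar RNA host genes and 56 of 81 for cytoplasmic ribosomal protein genes. C2H2 zinc finger genes named Zfp had 234 of 383 (61.1%), solute carriers 124 of 348 (35.6%), and olfactory receptors 0 of 1086.

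The cell type given by the labels was set beside marker genes. Narrow promoter regions were present at 6 of 12 smooth muscle contractile genes: *Acta2* (smooth muscle actin), *Smtn*, *Mylk* (myosin light chain kinase), *Cald1* (caldesmon), *Tpm2* (tropomyosin) and *Srf*. That share of 50% stands against 39.3% of all protein-coding genes. *Tagln* and *Lmod1* had a promoter region in at most 5 lists, *Des* and *Myocd* in 4, *Myh11* in 1 and *Cnn1* in 0. None of 8 oviduct epithelium, 6 leukocyte and 5 endothelium markers had a narrow promoter region. A merged region in at least 1 list was found at 13834 of all 20780 protein-coding genes and at 11 of the 12 muscle genes. It was found at 4, 1 and 4 of the epithelium, leukocyte and endothelium markers. Among those, regions within 2 kb of a start reached 5 lists for the endothelial genes *Kdr* and *Tek* and 4 lists for the epithelial gene *Krt19*, and *Epcam*, *Foxj1*, *Pax8*, *Ptprc* and *Cdh5* had no merged region.

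Pileup at these promoters was higher in BRG1 libraries than in PBRM1 libraries. Pileup was scaled to 1000000 fragments (FPM) by the fragment total in the header of each list, 18126049 to 23992352 for PBRM1 and 14284532 to 15897724 for BRG1. The median over the 7929 regions was 1.36, 1.32 and 1.13 FPM in PBRM1 replicates 1 to 3 and 1.95, 1.82 and 2.00 in BRG1 replicates 1 to 3. All 3 BRG1 libraries lay above all 3 PBRM1 libraries. Before scaling, the medians were 27, 24 and 27 fragments in PBRM1 replicates 1 to 3 and 31, 26 and 30 in BRG1 replicates 1 to 3. The selection required a called peak in each library, so the values compared here are not free of it. Its part in the difference was not tested. On the log2 scale the PBRM1 mean of the library medians was 0.34 ± 0.15 and the BRG1 mean 0.94 ± 0.069 (SD, n = 3 each), a difference of −0.60 for PBRM1 minus BRG1 (exact permutation test, two-sided p = 0.1, which 3 against 3 libraries cannot go below), and −0.25 with the deposited fold enrichment. The labels do not say whether replicates came from separate pools of mice, so p-values measure the spread between these libraries, which may be technical. A higher value in a pool of cells may reflect more cells with the protein at a site or more signal per cell, which cannot be told apart. PBRM1 and BRG1 were measured with different antibodies. A difference in level between the proteins thus cannot be told apart from one between the antibodies. Without IgG values, cutting that does not depend on the antibody was not measured at these promoters.

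**Figure D2:**
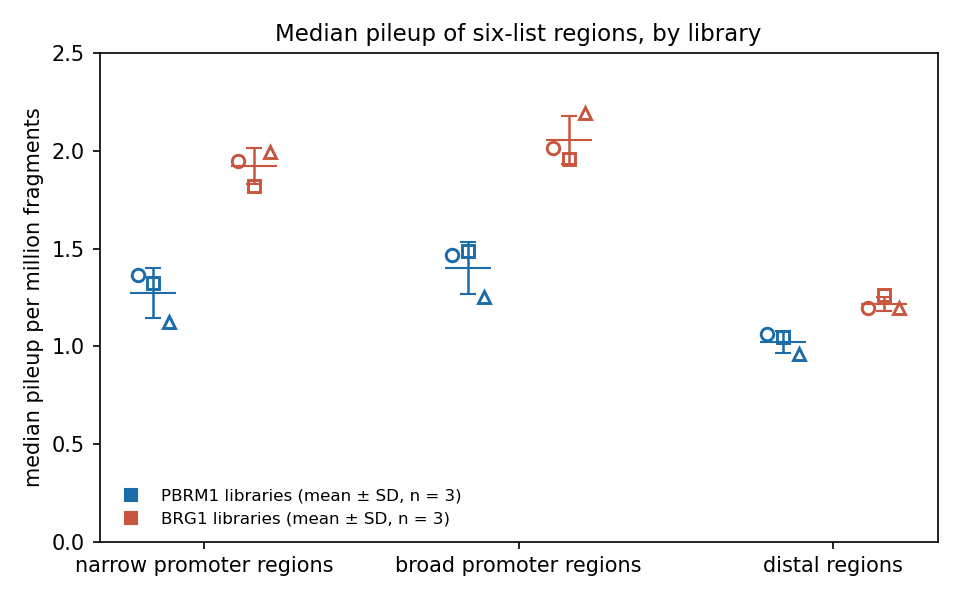
Median pileup in FPM (y axis) over narrow promoter, broad promoter and distal regions (x axis) in each library, with replicates 1, 2 and 3 as circles, squares and triangles and bars for mean ± SD (n = 3). BRG1 libraries lie above PBRM1 libraries in all 3 classes, at 1.82 to 2.00 against 1.13 to 1.36 in narrow promoter regions. Before scaling, the medians in distal regions were 18 to 19 fragments in BRG1 and 19 to 23 in PBRM1 libraries.

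The step from distal to narrow promoter regions was larger for BRG1. Median pileup was 1.24 ± 0.059 times the distal median in PBRM1 libraries and 1.58 ± 0.12 times in BRG1 libraries (SD, n = 3 each). Before scaling, the distal medians were 21, 19 and 23 fragments in PBRM1 replicates 1 to 3 and 19, 18 and 18 in BRG1 replicates 1 to 3. The order of the antibodies in distal regions thus depended on the scaling, which leaves the step within a library unchanged. Each region needed a called peak in each library, and the part of this in the step was not tested. The log2 step was 0.36, 0.34 and 0.23 in PBRM1 replicates 1 to 3 and 0.71, 0.53 and 0.74 in BRG1 replicates 1 to 3, without overlap, and differed by −0.35 for PBRM1 minus BRG1 (exact permutation test, two-sided p = 0.1). With the deposited fold enrichment the difference was −0.11, and between regions of 55 to 65% GC (3622 narrow promoter and 836 distal) it was also −0.11. Against broad promoter regions, narrow ones were lower by a log2 of −0.14 ± 0.035 in PBRM1 and −0.097 ± 0.047 in BRG1 libraries (SD, n = 3 each; difference −0.045, exact permutation test, two-sided p = 0.3). At a width limit of 1000 bp this difference turned to 0.044.

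The difference between antibodies was larger at higher GC content. Narrow promoter regions were divided into 5 groups by the GC content of the summit window, from a median of 53.7% to 71.0%. The median log2 difference, BRG1 minus PBRM1, was 0.39, 0.53, 0.59, 0.65 and 0.70 from the GC-poorest to the GC-richest group. BRG1 pileup rose from 1.46 to 2.01 FPM between these groups, and PBRM1 pileup went from 1.14 to 1.21 (geometric means over libraries, median over regions). The log2 step from the GC-poorest to the GC-richest group was 0.23, 0.064 and 0.057 in PBRM1 replicates 1 to 3 and 0.50, 0.42 and 0.43 in BRG1 replicates 1 to 3, without overlap (difference −0.33, exact permutation test, two-sided p = 0.1). With fold enrichment the difference of these steps was −0.17. In distal regions of the same 5 GC ranges the median difference was 0.24, 0.40, 0.54, 0.66 and 0.70 (3828, 348, 129, 88 and 67 regions). The medians of the classes were thus apart in the GC-poor ranges and close to each other in the GC-rich ones. GC content moved with the difference between antibodies, and its part in that difference was not tested.

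**Figure D3:**
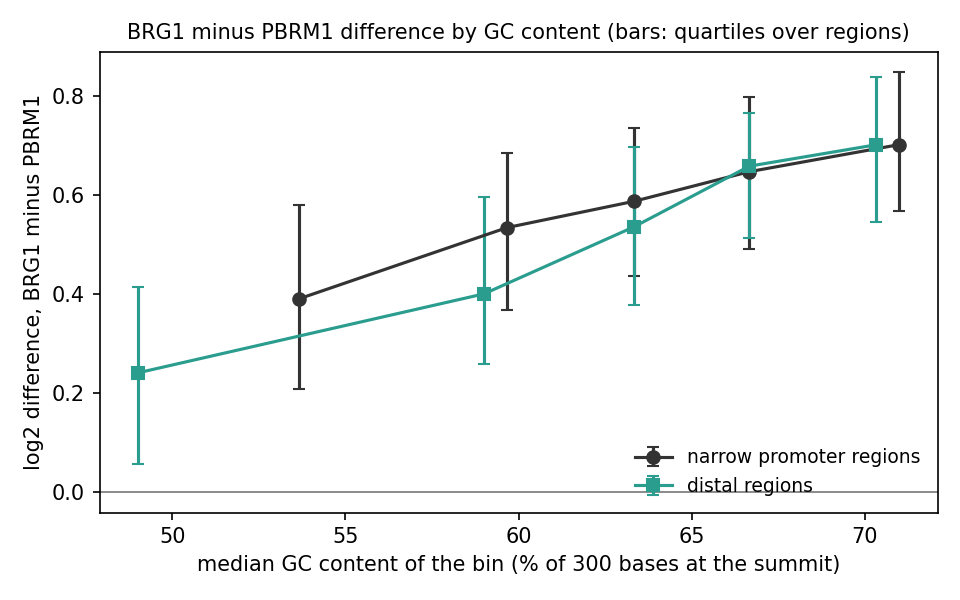
Median log2 difference, BRG1 minus PBRM1 (y axis), in 5 ranges of GC content at the summit (x axis, median % of each range) for narrow promoter and distal regions, with bars for the quartiles over regions. Both classes rise together, from 0.39 to 0.70 and from 0.24 to 0.70.

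Regions with different motifs differed as well. Regions with a GC box had a median log2 difference of 0.63, against 0.48 without one, and regions with AP-1 letters had 0.44 against 0.59. In the GC-poorest group the AP-1 values were 0.29 (214 regions) and 0.41 (1288 regions), and in the next group 0.46 and 0.54. In groups 3 and 4 they were 0.60 against 0.59 and 0.66 against 0.65, and in the GC-richest group 0.64 against 0.70. The level itself was higher where CCAAT was present, at 1.74 against 1.45 FPM, and this held in each GC group, from 1.4 against 1.24 in the GC-poorest to 1.74 against 1.47 in the GC-richest.

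Region by region, BRG1 was called higher at 5505 of the 7929 narrow promoter regions and PBRM1 at 6 (limma on log2 FPM, Benjamini-Hochberg adjusted p under 0.05). Over all 12655 regions in all 6 lists 52.8% were called higher in BRG1 and 0.419% in PBRM1. Narrow promoter regions made up 62.7% of those 12655. By class, BRG1 was called higher at 69.4% of narrow promoter, 69.9% of broad promoter and 22.2% of distal regions. PBRM1 was called higher at 0.0757%, 0.752% and 1.01%. Narrow and broad promoter regions were thus alike in the share called higher in BRG1. The libraries of the antibodies did not overlap at 5611 narrow promoter regions (70.8%), against 57.5% of all regions, and BRG1 was higher in 5601 of these. The median of all regions was shifted by 0.48 toward BRG1. After each library was centred on its median over all regions, 290 narrow promoter regions were called higher in BRG1 and 45 in PBRM1, where 2.47% and 2.29% of all regions were called. The median GC content was 67.3% in the 290 and 47.3% in the 45, and AP-1 letters were in 6 and 15 of them. With the deposited fold enrichment in place of FPM, 965 (12.2%) and 12 (0.151%) were called, against 10.5% and 0.221% of all regions. The centred counts rested on single libraries: they were 68 and 19 without BRG1 replicate 3, 117 and 17 without BRG1 replicate 1, 157 and 19 without PBRM1 replicate 3, and 172 and 16 without PBRM1 replicate 2.

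The largest excess of BRG1 lay at *Eif4e1b*, a cap-binding protein gene of the eIF4E family, in a region at chr13:54784407-54785021 whose summit was 961 bp downstream of the start, in annotated untranslated sequence. Its pileup was 1.72, 1.27 and 1.42 FPM in PBRM1 replicates 1 to 3 and 10.2, 9.38 and 8.98 in BRG1 replicates 1 to 3. The lowest BRG1 library was thus far above the highest PBRM1 library, and the log2 difference was 2.71 ± 0.16 (SE; limma adjusted p = 3.05e-28). The next had its summit at −1251 bp from a start of *Hand2os1*, the long noncoding RNA divergent from the transcription factor gene *Hand2*, at chr8:57312580-57313286. Its values were 1.41, 2.37 and 1.50 for PBRM1 and 5.91, 7.63 and 7.45 for BRG1 (log2 difference 2.02 ± 0.17 SE; limma adjusted p = 5.43e-18). At both regions the groups did not overlap, and the differences stayed past the threshold after centring, at 2.24 and 1.55, and with fold enrichment, at 1.54 and 0.73.

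The other 6 regions with a large BRG1 excess lay at promoters proper, with summits at −185 to 8 bp from the start. At *Cables2* the PBRM1 values were 2.02, 2.32 and 1.88 and the BRG1 values 5.41, 5.74 and 6.72 (log2 difference 1.52). At *Dop1b* they were 1.77, 1.10 and 1.46 and then 3.65, 4.27 and 4.12 (1.50). *Ahi1*, which encodes a protein of the ciliary base, had 0.909, 0.938 and 0.834 for PBRM1 and 2.33, 2.59 and 2.79 for BRG1 (1.52). BRG1 pileup was between 2.75 and 3.17 times PBRM1 pileup at these 6 regions. They included *Tmem35b*, *Mrpl14* of the mitochondrial ribosome and *Hacd2* of fatty acid elongation. All 6 held GC box letters in the summit window, as did 65.9% of all narrow promoter regions. The *Eif4e1b* and *Hand2os1* regions, with a larger excess, did not hold them. With fold enrichment their differences were 0.63 to 1.14 and passed the threshold.

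**Figure D4:**
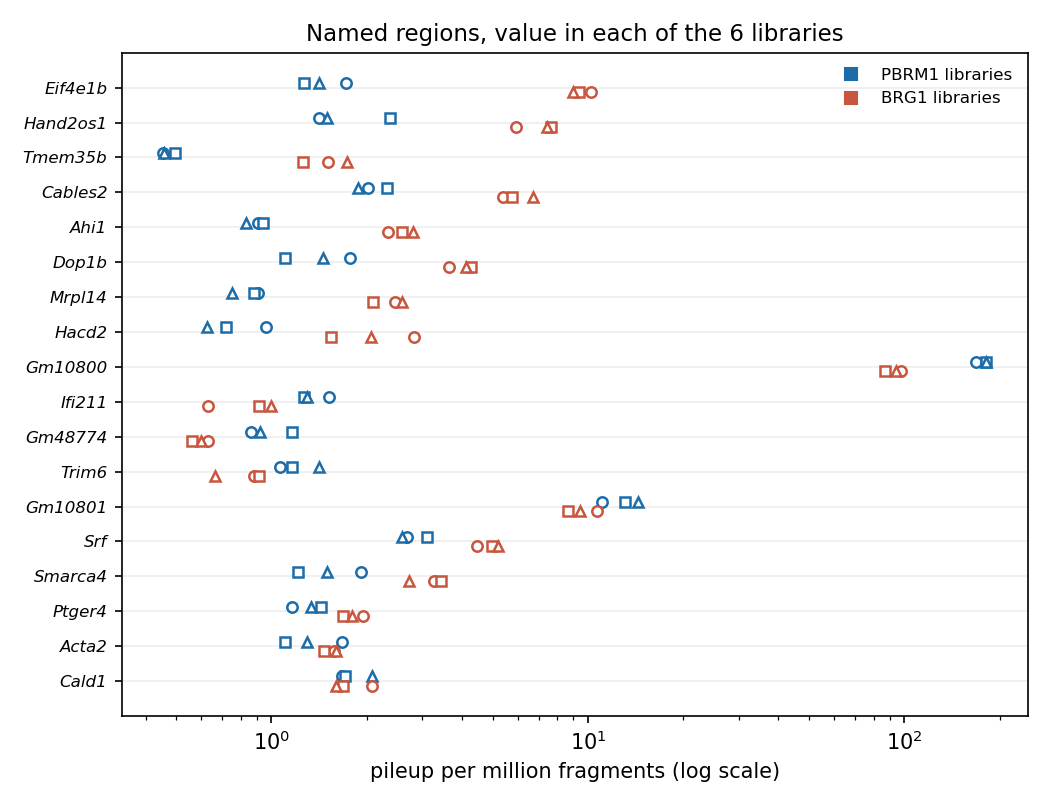
Pileup in FPM (x axis, log scale) in each of the 6 libraries at named narrow promoter regions (y axis), with replicates 1, 2 and 3 as circles, squares and triangles. The 8 uppermost regions have higher BRG1 values, the next 5 have higher PBRM1 values, and at *Acta2* and *Cald1* the groups overlap.

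PBRM1 was higher at few regions. At *Ifi211*, an interferon-inducible gene, the values were 1.52, 1.27 and 1.29 in PBRM1 replicates 1 to 3 and 0.629, 0.910 and 0.998 in BRG1 replicates 1 to 3 (log2 difference −0.71 ± 0.22 SE; limma adjusted p = 0.00599). *Trim6*, an E3 ubiquitin ligase gene, had 1.06, 1.16 and 1.42 against 0.881, 0.910 and 0.665 (−0.57). The region at the processed pseudogene *Gm48774*, with its summit at −1064 bp, had 0.859, 1.16 and 0.917 against 0.629, 0.560 and 0.599 (−0.70). The groups did not overlap at these 3, and the same held for the predicted genes *Gm10800* (−0.93) and *Gm10801* (−0.42). With fold enrichment the difference turned to 0.33 at *Gm10801*, and the calls were lost at *Gm10800* (−0.20; limma adjusted p = 0.102) and *Gm48774* (−0.50; limma adjusted p = 0.0525). *Grb10*, an imprinted gene for an adaptor of insulin signaling, was the sixth, with 1.26, 1.27 and 1.04 against 0.629, 1.05 and 0.865 and an overlap between groups. The GC content of the 6 summit windows ranged from 34.0 to 53.7%. The calls rested on single libraries at *Ifi211* (limma adjusted p = 0.0768 without BRG1 replicate 1), *Gm48774* (0.0585 without PBRM1 replicate 2) and *Trim6* (0.134 without PBRM1 replicate 3 and 0.144 without BRG1 replicate 3).

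The highest and lowest levels showed what kind of sites the selection admits. *Gm10800*, at chr2:98666259-98667328, had 168, 182 and 181 FPM in PBRM1 replicates 1 to 3 and 97.5, 86.6 and 94.1 in BRG1 replicates 1 to 3, and 82.3% of its bases were repeat-masked in the reference. *AY036118*, a lincRNA gene by annotation, followed with 15.1 to 16.9 for PBRM1 and 28.9 to 33.5 for BRG1, then *Gm10801* with 8.68 to 14.4 and 63.1% of its bases masked. Only 4 of the 7929 regions were more than 50% masked. The remaining 7 of the 10 highest regions, at *Sfi1*, *Aida*, *Gm10222*, *Gm23935*, *Fbxo24*, *P4hb* and *Izumo4*, had means from 4.7 to 8.2 FPM. At *Izumo4* the values were 3.89, 3.97 and 2.83 for PBRM1 and 5.85, 6.37 and 6.32 for BRG1. The 5 lowest, at *Lsamp*, *Galntl6*, *Gm19445*, *Cyp2j9* and *Gm22934*, had means near 0.6 or less, and *Lsamp*, a neuronal adhesion gene, had 0.354, 0.386 and 0.50 for PBRM1 and 0.503, 0.770 and 0.665 for BRG1.

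Genes of the remodeler itself were among the regions with values for both antibodies. Of 29 SWI/SNF subunit genes, 16 had a narrow promoter region, including *Smarca4*, *Smarca2*, *Pbrm1*, *Arid2* and *Smarcb1*, and 17 of the 18 regions at them were called higher in BRG1 (94.4%, against 69.4% of all narrow promoter regions), with a median log2 difference of 0.73. *Smarca4*, at chr9:21615610-21616821, had 1.92, 1.21 and 1.50 for PBRM1 and 3.27, 3.43 and 2.73 for BRG1, with no overlap (log2 difference 1.04 ± 0.18 SE; limma adjusted p = 7.66e-06). *Smarca2*, the alternative ATPase, had 2.22, 2.70 and 2.00 against 3.96, 2.66 and 3.13 at its upper-ranked region, where the groups overlapped (0.48; limma adjusted p = 0.0150). That call was lost without PBRM1 replicate 3 (0.39) or BRG1 replicate 1 (0.33), and with fold enrichment the difference was −0.039. After centring 1 of the 18 regions was called, at *Smarca4* (0.58; limma adjusted p = 0.0311). With fold enrichment the *Smarca4* difference was 0.52 (limma adjusted p = 0.0518).

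Regions at muscle genes were few. Of 9 regions at the 6 smooth muscle contractile genes 3 were called higher in BRG1 (33.3%, against 69.4% of all narrow promoter regions), and the median log2 difference was 0.37, against 0.59. At *Srf*, the transcription factor that drives contractile genes, the values were 2.68, 3.09 and 2.58 for PBRM1 and 4.47, 4.97 and 5.19 for BRG1 (0.81; limma adjusted p = 3.63e-05), without overlap. At *Acta2* they were 1.67, 1.10 and 1.29 against 1.57, 1.47 and 1.60, and at the upper-ranked *Cald1* region 1.67, 1.71 and 2.08 against 2.08, 1.68 and 1.60. The groups overlapped at both, with log2 differences of 0.21 and −0.031 that did not pass the threshold (limma adjusted p = 0.371 and 0.896). After centring they were −0.25 and −0.50 (limma adjusted p = 0.449 and 0.0842), so the direction at *Acta2* depended on the scaling. At *Srf* the difference was 0.34 after centring (limma adjusted p = 0.119) and 0.38 with fold enrichment (limma adjusted p = 0.127), and neither passed the threshold.

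Regions at prostaglandin genes were called about as often as narrow promoter regions in general. Of 27 genes of prostaglandin synthesis, transport, breakdown and reception, 12 had a narrow promoter region, among them *Ptgs2* and *Ptges* (synthesis), *Hpgd* (breakdown) and *Ptger4* (an EP receptor). Of the 13 regions at them 9 were called higher in BRG1 (69.2%) with a median log2 difference of 0.56. *Hpgd* had 1.47, 1.32 and 0.834 for PBRM1 and 2.26, 2.10 and 1.93 for BRG1, and *Ptger4* had 1.16, 1.43 and 1.33 against 1.95, 1.68 and 1.80, both without overlap (log2 differences 0.83 and 0.47, limma adjusted p = 0.000539 and 0.0393). After centring these differences were 0.37 and 0.0020, and neither passed the threshold. *Ptges2* had 2.27, 2.26 and 1.58 against 2.39, 2.80 and 2.46, without overlap but past no threshold (0.34; limma adjusted p = 0.101). The receptor genes *Ptgdr*, *Ptgdr2* and *Ptgir* had no merged region within 2 kb of a start.

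Families of protein synthesis and respiration had slightly larger values than all narrow promoter regions. The median log2 difference was 0.63 at cytoplasmic ribosomal protein genes, 0.64 at mitochondrial ribosomal protein genes, 0.65 at oxidative phosphorylation genes and 0.67 at translation initiation factor genes, against 0.59 over all narrow promoter regions. BRG1 was called higher at 46 of 58, 57 of 70, 52 of 66 and 30 of 38 of their regions, which is 79.3%, 81.4%, 78.8% and 78.9%, against 69.4% of all narrow promoter regions. Zfp genes had a lower median difference, 0.50, with 136 of 240 regions called (56.7%), and a lower median level, 1.33 FPM against 1.55.

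Summits lay close to the start. The median summit lay at −15 bp from the nearest start in the median region (quartiles −103 and 52 bp, negative upstream), and 72.6% of the regions had it within 150 bp of the nearest start. In the individual libraries the median position was −19, −17 and −39 bp in PBRM1 replicates 1 to 3 and −21, −19 and −26 bp in BRG1 replicates 1 to 3. These ranges overlapped, with a difference of −3 bp for PBRM1 minus BRG1 (exact permutation test, two-sided p = 1.0), which was 4 bp without PBRM1 replicate 3. Only 308 regions had their median summit more than 1000 bp away, and these were GC-poorer (median 53.0%), held AP-1 letters in 23.7% of summit windows and had a median log2 difference of 0.36.

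BRG1 summits were nearer to the start in absolute distance. The start of each region was the one nearest to its median summit, which was taken over the libraries of both antibodies. The start was thus not independent of the summits compared, and the part of this choice in the distance was not tested. The median distance was 110, 120 and 113 bp in PBRM1 replicates 1 to 3 and 93, 97 and 90 bp in BRG1 replicates 1 to 3, so the libraries did not overlap. The means were 114 ± 5.1 and 93.3 ± 3.5 bp (SD, n = 3 each), and the difference of 21 bp gave the smallest p of the design (exact permutation test, two-sided p = 0.1). BRG1 replicates also placed the summit more alike: the median distance between summits of 2 libraries was 41 to 46 bp among BRG1 replicates, 61 to 69 bp among PBRM1 replicates and 58 to 71 bp between antibodies. Median raw pileup at the summit was 26 to 31 fragments in BRG1 and 24 to 27 in PBRM1 libraries. These ranges overlapped. Median fold enrichment did not overlap, at 4.797 to 5.215 in PBRM1 and 5.671 to 6.156 in BRG1 libraries. Median −log10 q did not overlap either, at 7.94 to 9.66 in PBRM1 and 10.41 to 13.03 in BRG1 libraries. The part of raw pileup, fold enrichment or q in the distance was not tested. Where every peak had a −log10 q of at least 5 the difference was 16.7 bp.

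**Figure D5:**
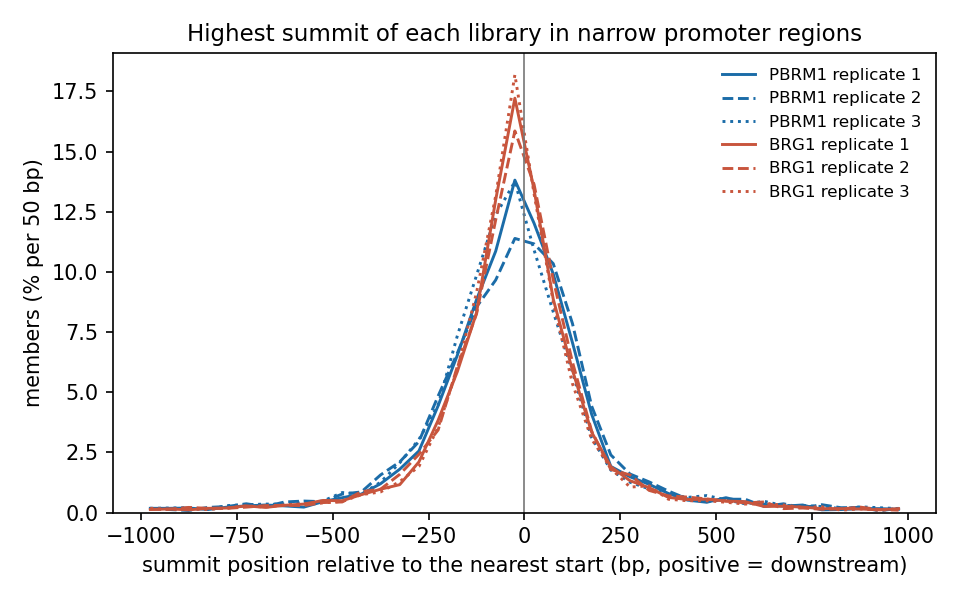
Share of the 7929 narrow promoter regions (y axis, % per 50 bp) by the position of the highest summit of each library relative to the nearest start (x axis, bp along the gene's strand, positive downstream). All 6 curves peak just upstream of the start, and the 3 BRG1 curves are higher there than the 3 PBRM1 curves.

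Agreement of the 6 summits varied between regions. The range of the 6 summits had a median of 212 bp, against 289.5 bp in distal regions. Among the 6639 regions with 1 peak in each list, all 6 summits fell on the same base at *Pttg1ip*, *Otud4* and *Gm10800*, and lay 1093 to 1222 bp apart at *Gm7461*, *Aspa* and *Usp15*. The mean levels were 2.76 FPM at *Pttg1ip* and 2.87 at *Otud4*, and 2.25 at *Gm7461*, 0.675 at *Aspa* and 0.976 at *Usp15*.

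Width was set by the selection and ranged from 214 to 1498 bp with a median of 862 bp. The narrowest regions were at *Tubb5* (a beta-tubulin), *Ccdc61* and *Dusp4* (a MAP kinase phosphatase), with widths of 214, 233 and 234 bp. Just inside the width limit were *Tmem138* with 1498 bp and *Ptges2* and *Rab29* with 1497 bp each, and just outside it *Tax1bp3* and *Ncapd2* with 1500 bp and *Ccdc9* with 1501 bp. The mean pileup was 1.35 to 2.26 FPM in the former and 1.86 to 2.13 in the latter. Divergent promoters were wider than the rest, with a median of 947 against 846 bp, and had a median level of 1.70 against 1.51 FPM.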

How the data were processed

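Per the labels and the submitters' processing notes, adapters were trimmed with cutadapt, reads were aligned to GRCm38.p5 with Bowtie2 and peaks were called with MACS2, the headers giving version 2.2.7.1. Filters on alignments were not given in the sources used here. Per the file headers, narrow peaks were called from paired-end fragments without a control, with all fragments kept, a q-value cutoff of 0.05 and a local background of 10 kb. The deposited pileup is a signal (fragment coverage at the summit, in whole fragments), the deposited fold enrichment is a ratio, in which the caller sets the summit against its local background, and the deposited p- and q-values are on a −log10 scale. The peak coordinates and lengths are the authors' own. Both pooled lists held a peak at each region and were not used in tests.

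For each library and region the highest peak was taken, and its pileup was scaled to 1000000 header fragments (FPM). Since raw pileups are small whole numbers, library medians move in steps of 1 fragment. Log2 values of all 12655 regions were compared with limma 3.58.1 (R 4.3.3, eBayes with trend) and Benjamini-Hochberg adjustment over all regions, after a test on simulated data. Library medians were compared by an exact permutation test over the 6 libraries, with two-sided p. Python 3.11.15, numpy 2.4.6, scipy 1.17.1, pandas 2.3.3 and pysam 0.24.0 were used. Starts came from GENCODE M21 and sequence from GRCm38.p6. Motif shares of all starts refer to 125895 distinct starts, and those of protein-coding starts to 90263.

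The regions, gene lists and tests were chosen with earlier results of these data known. Regions were named, by the gene of the nearest start, as the 10 highest and 5 lowest mean levels, up to 8 called regions without overlap in each direction with the largest difference, the 3 narrowest and those next to the width limit, list genes ranked by level, and the 3 closest and 3 farthest sets of summits. Values of further list genes and of *Grb10* were added after they had been seen, and so were the GC ranges, the CArG box and the absolute distance.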

Additional observations from a re-analysis of the deposited data

How the results depend on the processing

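The count of narrow promoter regions was 4987 from peaks with a −log10 q of at least 5 and 3570 where every list had to cover 50% of the region. It was 5433 to 8176 at width limits of 1000 and 2000 bp, for starts within 1 kb and for protein-coding starts, and 8119 to 8587 when 1 list was left out and the other 5 were required. Regions called higher in BRG1 fell from 5505 to 290 after centring and 965 with fold enrichment, and ranged from 4130 to 5249 without 1 library. Regions called higher in PBRM1 went from 6 to 45 after centring, 12 with fold enrichment and 2 at the stricter q (4 to 9 without 1 library). After centring, leaving out 1 library gave 68 to 252 for BRG1 and 16 to 42 for PBRM1, the lowest without BRG1 replicate 3 and without PBRM1 replicate 2 (27 for PBRM1 without its replicate 1). With 1 library of an antibody left out, the exact tests compared 2 libraries with 3.

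The difference in median level, PBRM1 minus BRG1, was −0.65 to −0.51 without 1 library and −0.25 with fold enrichment. The difference in the step to distal regions was −0.41 to −0.31 without 1 library, −0.11 with fold enrichment and in regions of 55 to 65% GC, and −0.37 without AP-1 regions. The difference in the step to broad regions was −0.065 to −0.019 without 1 library and turned to 0.044 at a limit of 1000 bp. The signed summit difference was −7 to 4 bp and the absolute one 18.2 to 23.2 bp without 1 library, and the GC step difference −0.39 to −0.30 (−0.17 with fold enrichment). After centring *Ptges2* (−0.13), *Ptgr2* (−0.074) and *Acta2* (−0.25) changed direction, as did other named regions whose difference was smaller than the amount that centring subtracts. With fold enrichment the direction changed at *Gm10801* (0.33), *Smarca2* (−0.039) and *Ptges2* (−0.12). The causes were not tested. For *Hpgd*, *Ptger4*, *Acta2*, *Cald1* and *Grb10*, values of alternatives other than centring are not given here.

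Replicate numbers did not pair the libraries, since deviations of same-numbered libraries correlated by 0.00022, 0.0019 and −0.030. With the replicate block 5343 and 6 regions were called, and 336 and 52 after centring. The paired sign flips left the library differences of −0.60, −0.35, −0.045, −0.33, −3 and 21 as they were, and cannot give a p below 0.25.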

Other observations

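Narrow promoter regions annotated as other than protein-coding differed from the rest in sequence as well as in class. Of the 852, the 280 at lincRNA genes had a median GC content of 58.3% and AP-1 letters in 16.1% of summit windows, and the 55 at processed pseudogenes 48.3% and 30.9%. Protein-coding ones had 64.0% and 4.69%. The median log2 difference, BRG1 minus PBRM1, was 0.46 at lincRNA genes, 0.29 at processed pseudogenes and 0.60 at protein-coding genes, and BRG1 was called higher at 141 of 280 (50.4%), 15 of 55 (27.3%) and 5029 of 7077 (71.1%), against 69.4% of all narrow promoter regions. The 36 regions at miRNA genes, with a GC content of 63.5%, had 0.62, and 27 of them (75%) were called. These are descriptions of regions, and GC content moved with the class.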
